A study of Mus musculus with 12 samples.

Results

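The replication-dependent histone genes of the mouse lie in 4 clusters. Their transcripts were read here in fully grown oocytes from wild-type females and from females with different lesions of Dpagt1. The members are the rows of the deposited expression table whose symbol begins with Hist1h, Hist2h, Hist3h or Hist4h. Of the 24255 rows of the table, 67 carried such a symbol, and 58 of these reached a value of 1 FPKM in at least 1 of the 12 libraries. FPKM is the number of sequenced fragments of a transcript relative to its length and to the depth of the library. The 67 members comprised 6 linker histone H1 genes, 18 H2A, 18 H2B, 12 H3 and 13 H4 genes, of which 5, 16, 16, 10 and 11 reached the threshold. Cluster 1 on chromosome 13 held 53 of them, cluster 2 on chromosome 3 held 10, cluster 3 on chromosome 11 held 3 and cluster 4 on chromosome 6 held 1.

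Dpagt1 encodes the enzyme that starts the synthesis of the lipid-linked sugar used for N-glycosylation of proteins. RNA was measured in pools of 20 oocytes from C57BL/6 females 3 weeks of age, 46 h after priming with 5 IU of PMSG, with 3 libraries in each of 4 groups. WT oocytes came from wild-type females, and MUT oocytes came from females with the D166G missense change of Dpagt1, which was induced with ENU and is present in every cell. GcKO oocytes came from Dpagt1F/F Gdf9CRE/+ females, in which Cre recombinase is driven in the oocyte by a Gdf9 transgene. AmcKO oocytes came from Dpagt1F/F Amhr2CRE/+ females, in which Cre is driven in granulosa cells from the Amhr2 gene, so that the sequenced cell kept its own Dpagt1. The females that gave each pool, and whether pools shared a female, are not given in the labels, so the spread between libraries may be partly technical. Dpagt1 itself was listed at 0 in the 3 WT and the 3 AmcKO libraries, at 0.408 to 0.985 FPKM in MUT and at 0.366 FPKM in GcKO 2 with 0 in GcKO 1 and GcKO 3. Its level therefore gave no check of the labels.

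Histone genes of these clusters are transcribed mainly in S phase, when new chromatin is assembled, and their mRNAs end in a conserved stem-loop in place of a poly(A) tail. The stem-loop is bound by SLBP, and the pre-mRNA is cut just after it by a machinery that contains the U7 small nuclear ribonucleoprotein. A growing oocyte does not replicate its DNA, but it stores histone mRNA and SLBP for the divisions of the embryo. Some cluster genes also give transcripts that run past the stem-loop and are polyadenylated in cells that do not divide.

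The stem-loops are shown because they decide how these mRNAs end. A stem of 6 paired bases around a loop of 4 bases was found in the annotated transcripts of 46 of the 67 members (GENCODE M21, GRCm38), and its arms paired fully in all 46. The pattern that was searched fixed most of the paired letters, so full pairing was largely set by the search. Among the other 21, the annotated model can end at the stop codon, as it does for the models of the H4 gene Hist1h4k and the H3 gene Hist1h3h. In the lines below, capitals mark the paired arms.

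Stem-loop of 26 members, among them Hist1h2bg, Hist1h2be, Hist1h2bh and Hist2h2aa1: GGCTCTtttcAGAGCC
Stem-loop of 7 members, all H4, among them Hist1h4d: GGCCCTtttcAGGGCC
Stem-loop of 6 members, among them Hist1h2bb and Hist1h3f: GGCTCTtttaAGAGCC
Stem-loop of 2 members, both H4, among them Hist1h4j: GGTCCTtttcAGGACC
Stem-loop of Hist1h4a: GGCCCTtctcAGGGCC
Stem-loop of Hist1h3g: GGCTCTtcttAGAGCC

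The commonest form occurred in H1, H2A, H2B and H3 genes and in no H4 gene, and the 12 H4 stem-loops differed from it in the arms. For 23 of the 46, the annotation carried at least 100 nt after the stem-loop, that is, a transcript that runs on. The model of Hist1h2bc, the member with the highest level, has 2 exons and 1156 nt and ends without a stem-loop.

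Several members that changed together lie beside an H2A gene that starts in the opposite direction. Promoter windows of 300 nt, from 250 before to 50 after the start, are therefore shown for the gaps of the highest H2B genes and of Hist1h2aa, and for Hist1h4d as an H4 gene. They were taken from RefSeq (GRCm38.p6), in which 60 of the 67 members were matched. Capitals mark the octamer (ATTTGCAT), the CCAAT box (CCAAT) and the TATA box (TATAAA) on either strand, and no match of these overlapped another one in the windows printed.

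Hist1h2bg, chr13:23571150-23571449, plus strand: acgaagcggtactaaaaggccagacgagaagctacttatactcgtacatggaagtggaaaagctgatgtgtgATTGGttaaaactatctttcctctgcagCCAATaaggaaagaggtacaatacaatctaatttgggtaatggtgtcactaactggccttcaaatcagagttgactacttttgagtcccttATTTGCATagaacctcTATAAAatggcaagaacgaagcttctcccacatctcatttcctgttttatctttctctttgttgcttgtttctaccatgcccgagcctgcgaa
Hist1h2ac, which faces Hist1h2bc, chr13:23683910-23684209, minus strand: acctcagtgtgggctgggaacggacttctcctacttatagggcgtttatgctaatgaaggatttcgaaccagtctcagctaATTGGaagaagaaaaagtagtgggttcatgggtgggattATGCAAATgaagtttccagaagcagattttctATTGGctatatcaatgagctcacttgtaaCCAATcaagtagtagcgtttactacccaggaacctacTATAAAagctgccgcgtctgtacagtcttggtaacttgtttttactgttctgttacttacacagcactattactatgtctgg
Hist1h2aa, chr13:23934187-23934486, plus strand: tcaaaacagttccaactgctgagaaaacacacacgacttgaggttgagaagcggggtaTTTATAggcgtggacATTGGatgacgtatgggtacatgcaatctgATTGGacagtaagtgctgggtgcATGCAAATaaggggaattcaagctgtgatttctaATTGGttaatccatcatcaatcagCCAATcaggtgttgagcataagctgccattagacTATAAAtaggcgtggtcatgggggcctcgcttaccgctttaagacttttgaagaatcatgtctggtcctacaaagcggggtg
Hist1h4d, chr13:23581318-23581617, plus strand: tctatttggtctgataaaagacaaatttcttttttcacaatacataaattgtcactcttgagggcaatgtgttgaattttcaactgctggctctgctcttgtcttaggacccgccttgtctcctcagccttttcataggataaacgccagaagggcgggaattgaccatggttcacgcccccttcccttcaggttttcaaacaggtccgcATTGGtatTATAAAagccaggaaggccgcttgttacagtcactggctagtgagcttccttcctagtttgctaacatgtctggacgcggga

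The octamer was found in the windows of 7 of 17 H2A and 7 of 15 H2B members and in none of the 6 H1, 10 H3 and 12 H4 windows, against 1.74% of the 32851 windows in the RefSeq table. The CCAAT box stood in 51 of 60, including every H1, H2A, H2B and H3 window but only 3 of 12 H4 windows, against 37.4% of all. The TATA box stood in 35 of 60 against 13.6%. The H2A genes in these gaps share the window with their H2B neighbour, so the counts of the H2A and H2B types are not independent, and a match describes letters only.

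Before any comparison, the libraries themselves differed. All FPKM of a library added up to between 1167362 and 1226005 in WT, against 589617 and 611597 in MUT, 482314 and 684212 in GcKO and 883256 and 1107925 in AmcKO, and 9359 to 9622 genes lay above 0 in WT against 10399 to 11608 in the other groups. Counts of fragments were not analysed here, but low FPKM values move in steps that each correspond to 1 fragment. Measured on the histone members and set against MUT 2, the WT step was 1.96 to 2.36, the MUT step 0.990 to 1.16, the GcKO step 0.844 to 1.41 and the AmcKO step 1.20 to 1.42. A fragment in a WT library thus weighed more, and 28 to 33 of the 58 members were above 0 in a WT library, against 33 to 47 in the other libraries. The weight also differed between genes. In MUT, 1 fragment weighed 1.38 to 1.61 FPKM for Hist1h1b, with a locus of 796 nt, and 5.46 to 6.39 for Hist1h4i, with 405 nt. FPKM of such short genes thus did not scale with length alone, which limits comparisons between members and between types. WT and AmcKO libraries are numbered 4 to 6 and MUT and GcKO libraries 1 to 3 in the labels, and a difference that comes with this numbering cannot be told apart from the genotype. The oocyte markers Zp1, Zp2, Zp3, Gdf9, Bmp15, Oosp1, Figla, Nlrp5, Ooep, Mos, Kit and Padi6 were above 0 in every group. Of 17 markers of granulosa and cumulus cells, Amh, Amhr2, Foxl2, Wt1 and Slc38a3 were listed at 0 in all 12 libraries. Esr2 (145 to 152 FPKM in WT), Cyp19a1 (15.1 to 20.1) and Nr5a2 (0.928 to 1.80), which are on the same list, were above 0 in every library.

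The members together made up a small share of the transcriptome, and a few H2B and H2A genes made up most of it. The summed level of the members ranged between 2729 and 3524 FPKM in WT, 1509 and 1788 in MUT, 1266 and 1575 in GcKO and 1830 and 2310 in AmcKO. These sums were 0.223% to 0.302% of all FPKM of a WT library, 0.256% to 0.293% of a MUT library, 0.230% to 0.262% of a GcKO library and 0.204% to 0.209% of an AmcKO library. Thus the summed level was lower outside WT, whereas the share of the library overlapped between WT, MUT and GcKO. Only 4 members had a mean over the 12 libraries of at least 100 FPKM, namely Hist1h2bc at 858, Hist1h2bg at 309, Hist2h2aa1 at 135 and Hist1h2aa at 134. In all, 22 members had a mean of at least 10 FPKM and 27 a mean under 5, and 18 were above 0 in all 12 libraries.

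By type, H2B members summed to 2450 ± 324 FPKM (SD, n = 3) in WT, 1040 ± 105 in MUT, 987 ± 155 in GcKO and 1530 ± 182 in AmcKO. H2A members summed to 514 ± 81.4 in WT, 289 ± 56.6 in MUT, 272 ± 41.1 in GcKO and 313 ± 34.2 in AmcKO. For both types every WT library was above every other library, and the AmcKO libraries were above all MUT and GcKO libraries for H2B only. H1 members summed to 43.0 ± 15.1 FPKM in WT and 66.1 ± 19.5 in MUT, H3 members to 44.1 ± 20.8 and 64.7 ± 18.6, and H4 members to 143 ± 88.8 and 197 ± 43.3. In these 3 types the ranges of WT and MUT overlapped. With 3 libraries against 3, an exact permutation test of such a sum cannot go below p = 0.1, so the sums are given as a description.

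**Figure D1:**
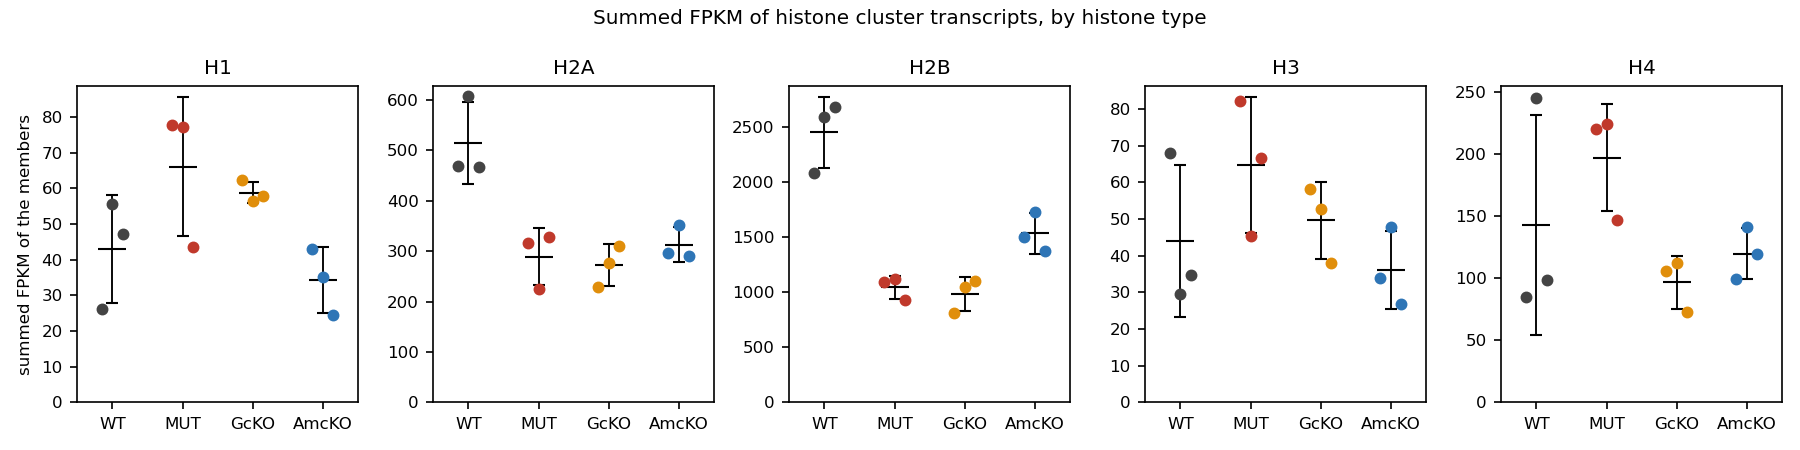
Summed FPKM of the members of each histone type in every library (points), with the mean and SD of the 3 libraries of each group (bar and whiskers). H2B sums lay between 2080 and 2680 in WT, 925 and 1120 in MUT, 810 and 1100 in GcKO and 1370 and 1730 in AmcKO, whereas the H1, H3 and H4 sums of WT and MUT overlapped.

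Expressed as a share of the members' own sum, which does not depend on the scale of the library, H2B took 73.4% to 80.6% in WT and 74.9% to 76.1% in AmcKO, but 61.1% to 66.2% in MUT and 64.0% to 69.6% in GcKO. H4 took 2.96% to 6.94% in WT and 9.71% to 13.3% in MUT, while GcKO at 4.60% to 8.38% and AmcKO at 5.03% to 6.49% overlapped WT. The H1 share was between 0.965% and 1.58% in WT, 2.88% and 4.57% in MUT, 3.64% and 4.92% in GcKO and 1.34% and 2.18% in AmcKO. The MUT and GcKO libraries therefore held a smaller H2B share and a larger H1 share than any WT or AmcKO library. Hist1h2bc alone made up 32.0% to 47.9% of the members' sum in a library. Nearly all of the H1 share came from Hist1h1a, which was not called in any comparison. WT and AmcKO also share their library numbers, which MUT and GcKO do not, so this split cannot be told apart from the numbering. Each library pooled 20 oocytes, so a change in some oocytes of a pool and a change in all of them cannot be told apart.

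The H2A and H2B genes of a head-to-head pair stood at very different levels. In 11 such pairs, the starts lay 175 to 305 nt apart, with a median of 250 nt. The H2B gene had the higher mean in 8 pairs, and in 6 of them it was at least 10 times the mean of its H2A neighbour, counting Hist1h2ak, which was listed at 0 in every library beside Hist1h2bn at 20.2 FPKM. Hist1h2bc at 858 FPKM faced Hist1h2ac at 2.69, and Hist1h2bg at 309 FPKM faced Hist1h2ae at 0.720, in both cases with H2B above H2A in all 12 libraries. The opposite order was found for Hist1h2aa, which encodes the testis and oocyte H2A variant TH2A, at 134 FPKM against 44.2 FPKM for its neighbour Hist1h2ba, which encodes TH2B. There the H2A gene was above in 11 of 12 libraries.

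**Figure D2:**
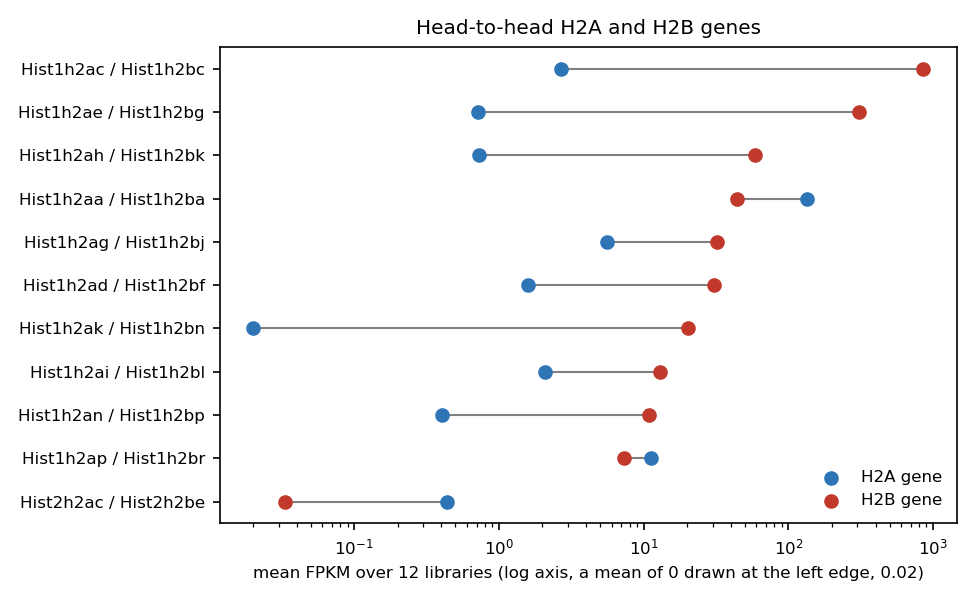
Mean FPKM over the 12 libraries (log axis) of the H2A gene (blue) and the H2B gene (red) of 11 head-to-head pairs, ordered by the level of the H2B gene. The H2B gene is the higher of the pair in 8 cases, and Hist1h2ak, at 0, is drawn at the left edge.

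The comparison of MUT with WT asks how oocytes with the missense enzyme differ from normal ones. The members called lower in MUT were 5 of the 16 H2B members and 1 of the 16 H2A members, the gene of TH2A. Those called higher were 4 of the 11 H4, 2 of the 16 H2B, 1 of the 10 H3 and 1 of the 5 H1 members. Expression was tested with limma on log2(FPKM + 1) over all 11233 genes at 1 FPKM or more in some library, and the threshold for a call was an adjusted p (Benjamini-Hochberg, over all of these genes) under 0.05. Of the 58 members, 8 were called higher and 6 lower, 13.8% and 10.3% of them, beside 9.46% and 11.3% of all genes tested, so the share of members that fell lay near that of all genes. The median log2 difference was 0.07 over the members and 0.12 over all genes. When every library was instead scaled to the same FPKM sum, 13 members were higher and 2 lower, beside 41.3% and 2.23% of all genes on that scale, and the median over all genes moved to 0.72, so the directions below hold on the deposited scale, and the falls that also passed on the other scale are named.

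Hist1h2bc, an H2B gene with 2 exons at chr13:23684199-23692908 (GRCm38, plus strand), stood at 1192, 1373 and 1593 FPKM in WT, at 572, 647 and 563 in MUT, at 500.3, 671 and 700.3 in GcKO and at 800, 913 and 770.2 in AmcKO. No MUT, GcKO or AmcKO library reached the lowest WT library. The log2 difference was -1.21 ± 0.16 (SE) in MUT (limma adjusted p = 2.5e-04) and -1.16 ± 0.16 in GcKO (adjusted p = 3.4e-04), and it was -0.74 ± 0.16 in AmcKO, where the adjusted p of 0.0759 missed the threshold. With the same FPKM sum in every library the differences were -0.22 in MUT (adjusted p = 0.114) and -0.12 in GcKO (adjusted p = 0.386).

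Hist1h2bg, an H2B gene of a single exon at chr13:23571396-23572013 (plus strand) whose promoter is printed above, stood at 479, 575 and 600.2 FPKM in WT, 222, 208 and 119 in MUT, 138, 176 and 172 in GcKO and 318, 371 and 327 in AmcKO. The 4 groups fell into 3 levels that did not overlap, with WT highest, AmcKO next, and MUT and GcKO together at the bottom. It fell by 1.63 on the log2 scale in MUT (SE 0.21, limma adjusted p = 2.0e-04) and by 1.76 in GcKO (SE 0.21, adjusted p = 1.5e-04). This member was also called with the same FPKM sum, at -0.64 in MUT (adjusted p = 0.0131) and -0.73 in GcKO (adjusted p = 0.00624).

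Hist1h2be, an H2B gene whose 2-exon model spans chr13:23583670-23621124 (minus strand), stood at 96.8, 139 and 165 FPKM in WT, 49.7, 54.9 and 48.5 in MUT, 36.3, 42.5 and 29.7 in GcKO and 71.8, 118 and 86.1 in AmcKO. MUT and GcKO libraries lay below all WT and AmcKO libraries. The fall was 1.34 log2 in MUT and 1.84 in GcKO, with log2 differences of -1.34 ± 0.23 (limma adjusted p = 0.00111) and -1.84 ± 0.23 (adjusted p = 1.6e-04), of which the GcKO value also passed with the same FPKM sum (-0.81, adjusted p = 0.0121). Hist1h2bh, another H2B gene with the common stem-loop, stood at 30.9, 55.7 and 35.1 FPKM in WT, 14.5, 11.5 and 10.1 in MUT, 10.2, 14.7 and 16.5 in GcKO and 20.7, 28.1 and 13.8 in AmcKO. It fell by 1.64 in MUT (SE 0.29, adjusted p = 0.00146) and by 1.47 in GcKO (SE 0.29, adjusted p = 0.00296), and the MUT value passed on both scales.

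Hist1h2br stood at 11.0, 12.4 and 13.1 FPKM in WT, 6.23, 5.42 and 4.80 in MUT, 2.78, 5.20 and 3.25 in GcKO and 8.11, 6.64 and 8.76 in AmcKO, again with WT above all other libraries. Its log2 difference was -1.03 ± 0.25 in MUT (limma adjusted p = 0.0101) and -1.51 ± 0.25 in GcKO (adjusted p = 9.2e-04). The locus that the deposited table gives for this symbol lies away from the annotated gene of the same name, as it does for 4 passing members in all, so which H2B copy it measured is uncertain. Hist1h2bb, an H2B gene, was called in GcKO alone, with 7.06, 31.8 and 13.3 FPKM in WT against 0, 8.46 and 0 in GcKO. Read from their steps as described below, these values came to 7 fragments in WT and 3 in GcKO, and their ranges overlapped. The call (log2 difference -2.88 ± 0.91, limma adjusted p = 0.0391) was lost when any of WT 5, WT 6, GcKO 1 or GcKO 3 was left out.

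Among H2A genes, Hist1h2aa (TH2A, chr13:23934462-23934851, plus strand) stood at 221, 201 and 231 FPKM in WT, 88.0, 44.6 and 108 in MUT, 70.0, 130 and 103 in GcKO and 109, 170 and 131 in AmcKO. Every WT library was above every other library. The log2 difference was -1.52 ± 0.29 in MUT (limma adjusted p = 0.00269), -1.14 ± 0.29 in GcKO (adjusted p = 0.0142) and -0.69 ± 0.29 in AmcKO (adjusted p = 0.292). Without GcKO 1 the GcKO value was no longer called (adjusted p = 0.0748). Its partner Hist1h2ba (TH2B) spread from 21.3 to 104 FPKM within WT alone and was not called in any comparison.

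The other H2A gene that was called is Hist3h2a in cluster 3 (chr11:58954685-58956830, plus strand), which has no 150-nt stretch in common with another member. It stood at 65.4, 73.7 and 74.2 FPKM in WT, 39.9, 45.7 and 60.6 in MUT, 27.0, 20.8 and 39.3 in GcKO and 48.2, 29.9 and 40.3 in AmcKO. All libraries outside WT lay below WT, and the call was made in GcKO, with a log2 difference of -1.31 ± 0.24 (limma adjusted p = 0.00200). Hist2h2aa1, the H2A gene with the highest mean, spread from 114 to 301 FPKM in WT and lay at 93.5 to 141 in all other libraries, and it was not called. It shares its locus in the table with Hist2h2aa2, and the estimate splits their fragments, with Hist2h2aa2 at 19.7 FPKM in WT 4 and at no more than 0.00576 elsewhere.

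**Figure D3:**
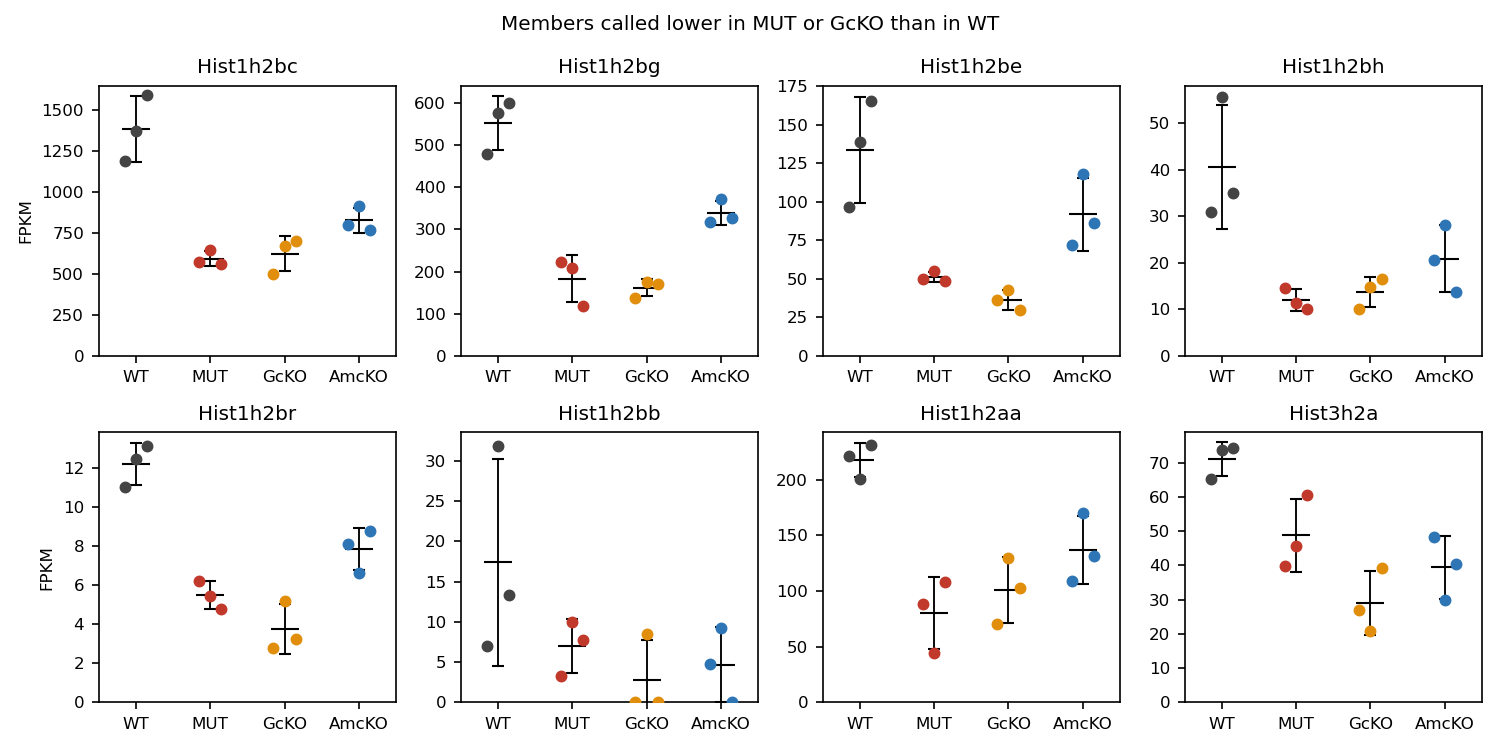
FPKM in every library (points) with the mean and SD of 3 libraries (bar and whiskers) for the 8 members called lower in MUT or GcKO than in WT. In Hist1h2bc, Hist1h2bg, Hist1h2be, Hist1h2bh, Hist1h2br and Hist1h2aa no MUT or GcKO library reaches the lowest WT library, and the ranges overlap in Hist1h2bb.

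The calls were read by level. At a mean of at least 100 FPKM, 68.1% of the 882 genes tested were called lower in MUT and 71.0% in GcKO, with medians of -0.81 and -0.86 on the log2 scale. The 4 members at this level had medians of -1.37 in MUT and -1.15 in GcKO, and 3 of the 4 were called lower in each. Between 20 and 100 FPKM, 26.9% of 1489 genes were called lower in MUT and 27.1% in GcKO, with medians of -0.25 and -0.31, while the 12 members had medians of -0.64 and -0.92, and 2 were called lower in MUT and 3 in GcKO. Between 5 and 20 FPKM, 8.12% of 2388 genes were called lower in MUT and 7.41% in GcKO, and of the 15 members 1 was called lower in MUT and 2 in GcKO. Under a mean of 5 FPKM, 7.09% of 6474 genes were called higher in MUT and 1.13% lower, and of 27 members 4 were higher and 0 lower. By type, the median log2 difference between MUT and WT was -1.05 over the 16 H2B members, -0.14 over the 16 H2A members, 0.54 over the 5 H1 members, 1.14 over the 10 H3 members and 0.21 over the 11 H4 members. Whether the level of these genes accounts for their direction was not tested.

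**Figure D4:**
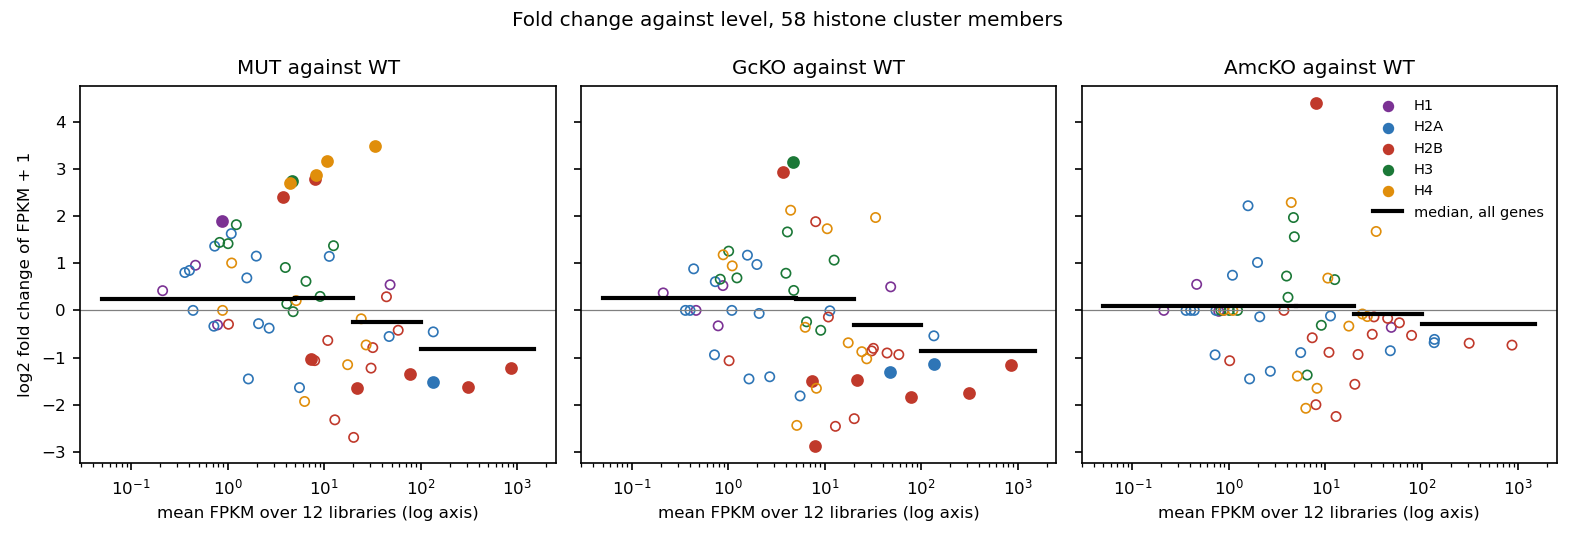
Log2 fold change of FPKM + 1 against the mean FPKM over 12 libraries (log axis) for the 58 members in the 3 comparisons with WT, coloured by histone type and filled where called at an adjusted p under 0.05. Black bars give the median of all genes tested at mean levels under 5, from 5 to 20, from 20 to 100 and from 100 FPKM, which falls to -0.81 in MUT, -0.86 in GcKO and -0.29 in AmcKO at the highest levels.

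Among the 8 members that rose in MUT, Hist1h1e, Hist1h3h, Hist1h4k, Hist2h2bb and Hist3h2ba reached 1 FPKM in no WT library. They entered the test only through groups in which they were higher. Their rises in the other comparisons with WT carry the same limit. Of the 8, 7 had a mean below 20 FPKM, and Hist1h4d lay above it. This H4 gene of a single exon (chr13:23581598-23582735, plus strand) carries the H4 form of the stem-loop and has no 150-nt stretch in common with another member. It stood at 14.9, 16.7 and 0 FPKM in WT, 76.8, 97.5 and 50.6 in MUT, 30.4, 24.3 and 20.3 in GcKO and 20.6, 41.7 and 8.93 in AmcKO. The MUT libraries were above all 9 others. The log2 difference between MUT and WT was 3.49 ± 0.83 (limma adjusted p = 0.00950), and it ranged from 2.13 to 4.20 with 1 library left out in turn. It was lost when the 2 groups were fitted alone. GcKO was above WT in every library, but with a log2 difference of 1.97 ± 0.83 it was not called (adjusted p = 0.112), and neither was the difference between GcKO and MUT (-1.52 ± 0.83, adjusted p = 0.842).

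For the low members, the FPKM could be turned back into whole fragments. In 35 of the 58 members, all 12 values lay within 0.15 of a fragment of whole numbers, and 4 more did so within 0.3. The 35 held 2 to 60 fragments over all 12 libraries, with a median of 11, and 28 of them never exceeded 5 fragments in a library. The calls on these members therefore rest on few fragments, and a value of 0 does not show that the transcript was absent. The recovered numbers were read from the steps and did not enter a test.

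**Figure D5:**
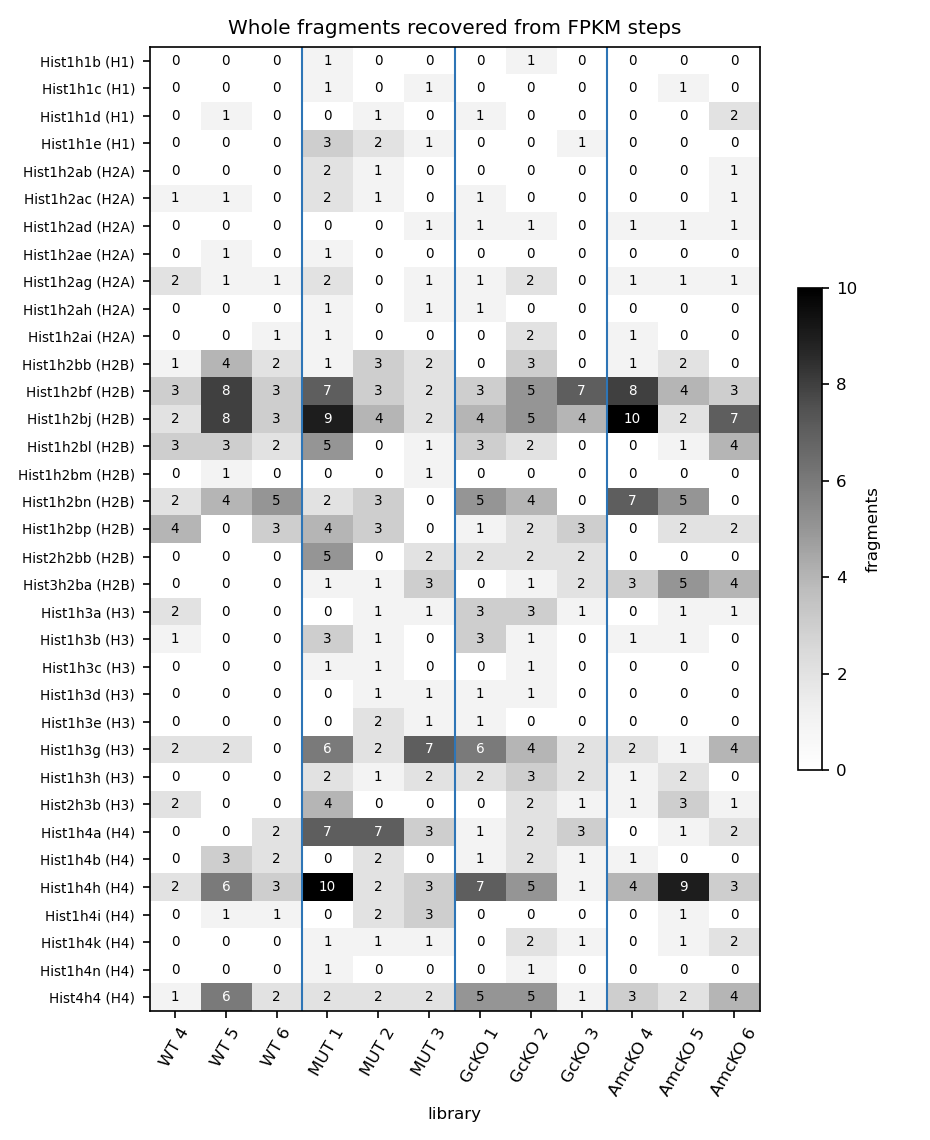
Whole fragments recovered from the FPKM of 35 members in each library, with darker cells for more fragments and blue lines between the groups. Most cells hold 0 to 3 fragments, and the highest is 10.

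Among H4 genes, Hist1h4a stood at 0, 0 and 15.7 FPKM in WT, 27.5, 27.9 and 13.8 in MUT, 3.44, 6.71 and 16.9 in GcKO and 0, 5.57 and 9.56 in AmcKO, which came from 0, 0 and 2 fragments in WT and 7, 7 and 3 in MUT. WT 6 overlapped the MUT range, and the call (log2 difference 3.17 ± 1.01, limma adjusted p = 0.0389) was lost in 5 of 6 fits that left out a WT or MUT library, all but the one without WT 6. Hist1h4j stood at 0, 30.1 and 0 FPKM in WT and 24.6, 28.3 and 15.3 in MUT and was listed at 0 in all GcKO and AmcKO libraries. WT 5, at 1 fragment, lay above every MUT library, at 2, 2 and 1 fragments on the looser tolerance, and the call (2.87 ± 0.94, adjusted p = 0.0432) was lost without WT 4, WT 6 or any of the MUT libraries. Hist1h4k was listed at 0 in WT and stood at 5.15, 5.36 and 6.12 FPKM in MUT, 1 fragment in each. Its limma adjusted p was 0.0439, and the call was lost whichever library was left out. A fragment of it in WT would weigh 10.4 to 12.5 FPKM, above each of these MUT values. Of the 150-nt stretches of Hist1h4k, 53.4% also occur in another member, so its fragments may be split between copies. Hist1h4h, which was not called, stood at 18.6, 62.9 and 26.2 FPKM in WT, 43.9, 8.99 and 15.5 in MUT, 26.9, 18.8 and 6.30 in GcKO and 25.4, 56.5 and 16.1 in AmcKO. All 4 groups overlapped, and its log2 difference between MUT and WT was -0.73 ± 0.62 (limma adjusted p = 0.433).

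Among H3 genes, Hist1h3h was listed at 0 in WT and stood at 6.70, 3.35 and 7.81 FPKM in MUT, 5.88, 8.54 and 9.54 in GcKO and 4.80, 9.38 and 0 in AmcKO. These are 2, 1 and 2 fragments in MUT, 2, 3 and 2 in GcKO and 1, 2 and 0 in AmcKO. It was called in MUT (limma adjusted p = 0.00763) and in GcKO (adjusted p = 0.00326), in every fit that left out a library. Since all WT values were 0, leaving out a WT library could not change the WT mean. A fragment of it in WT would weigh 6.61 to 7.97 FPKM, so these zeros lie at the limit of detection. Of its 150-nt stretches, 90.5% also occur in another member. Hist1h3g, the H3 gene with the highest mean, stood at 14.0, 15.8 and 0 FPKM in WT and 19.7, 6.57 and 26.8 in MUT, and Hist2h3c2 at 16.4, 0 and 27.5 in WT and 19.2, 3.69 and 8.75 in MUT. Their groups overlapped, and neither was called.

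Among H1 genes, Hist1h1e was listed at 0 in WT and AmcKO and stood at 4.26, 2.70 and 1.61 FPKM in MUT, from 3, 2 and 1 fragments, with 0, 0 and 1.99 in GcKO. It was called in MUT against WT (limma adjusted p = 0.00503). A fragment of it in WT would weigh 2.74 to 3.31 FPKM. Hist1h1a, by far the highest linker histone of the cluster, made up nearly all of the H1 sum and stood at 26.3, 52.0 and 47.3 FPKM in WT, 70.4, 73.0 and 40.1 in MUT, 60.9, 55.3 and 55.8 in GcKO and 43.0, 32.9 and 21.2 in AmcKO. Every GcKO library lay above every WT library, but the log2 differences of 0.54 ± 0.30 in MUT (adjusted p = 0.227) and 0.50 ± 0.30 in GcKO (adjusted p = 0.268) did not pass.

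A pair of minor H2B genes outside cluster 1 rose as well. Hist2h2bb of cluster 2 was listed at 0 in WT and AmcKO and stood at 16.4, 0 and 7.63 FPKM in MUT and 5.75, 5.56 and 9.32 in GcKO, the latter from 2 fragments in each library. It was called in MUT (limma adjusted p = 0.0304) and GcKO (adjusted p = 0.0111), although MUT 2 was at 0 like WT. In MUT the call was lost without any of the WT libraries, MUT 1 or MUT 3. Hist3h2ba of cluster 3 was listed at 0 in WT and stood at 3.80, 3.83 and 13.3 FPKM in MUT, 0, 3.23 and 10.8 in GcKO and 16.4, 26.8 and 18.4 in AmcKO, the latter from 3, 5 and 4 fragments. Its call in MUT (adjusted p = 0.0101) was lost without MUT 3, with an adjusted p of 0.0554. A fragment in WT would weigh 6.46 to 7.79 FPKM for Hist2h2bb and 7.51 to 9.06 FPKM for Hist3h2ba.

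The comparison of GcKO with WT asks what follows when Dpagt1 is deleted in the oocyte itself. Here 6 of the 16 H2B and 2 of the 16 H2A members were called lower, and 1 H2B and 1 H3 member higher. Of the 58 members, 8 (13.8%) were called lower (Hist1h2aa, Hist1h2bb, Hist1h2bc, Hist1h2be, Hist1h2bg, Hist1h2bh, Hist1h2br and Hist3h2a) and 2 higher (Hist1h3h and Hist2h2bb), beside 11.4% of all genes tested that were lower and 8.71% that were higher. The 10 calls are 17.2% of the members. With the same FPKM sum in every library, 8 were higher and 2 lower, beside 42.4% and 2.14% of all genes, and the median over all genes moved from 0.12 to 0.74. The median over the 16 H2B members was -1.11 on the log2 scale, against 0.12 over all genes.

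MUT and GcKO were compared with the same WT libraries, so their shared calls are not independent. Tested directly, GcKO against MUT gave 0 called members with limma, beside 0.0712% of all genes called higher and 0.134% lower. At an unadjusted p under 0.05 there were 7 members, beside 6.60% of all genes. The nearest was Hist1h4j, at 15.3 to 28.3 FPKM in MUT and listed at 0 in GcKO, with an adjusted p of 0.0779. This does not show that the groups were alike, since for Hist1h4d, for example, the difference of -1.52 had a standard error of 0.83.

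The comparison of AmcKO with WT asks what follows when Dpagt1 is deleted in the granulosa cells around the oocyte. Of the 58 members, Hist3h2ba alone was called higher (limma adjusted p = 0.0129) and 0 were called lower, beside 0.0979% of all genes that were higher and 0.116% that were lower. A total of 14 of the 58 members had an unadjusted p under 0.05, beside 15.6% of all genes. The 3 AmcKO libraries of Hist3h2ba were above all 3 WT libraries, and the call was lost without AmcKO 6 (adjusted p = 0.0566). The median over the 16 H2B members was -0.64 on the log2 scale, against 0.03 over all genes, and 14 of the 16 were negative.

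MUT, whose missense allele is in every cell, and GcKO were then set against AmcKO directly. The WT libraries, with their heavier fragments, were thus not in these contrasts. The AmcKO step of 1.20 to 1.42 was still above the MUT step of 0.990 to 1.16 and overlapped the GcKO step of 0.844 to 1.41. AmcKO libraries are also numbered apart from MUT and GcKO libraries, so the numbering remained mixed with the genotype. In MUT against AmcKO, 3 members were called higher (Hist1h1e, Hist1h3f and Hist1h4j) and 2 lower (Hist1h2be and Hist1h2bg), beside 1.42% and 5.07% of all genes. Hist1h1e and Hist1h4j were listed at 0 in every AmcKO library and entered the test only through other groups, MUT among them. Their MUT values came from 6 fragments for Hist1h1e and, on the looser tolerance, 5 for Hist1h4j. A fragment in AmcKO would weigh 1.68 to 1.99 FPKM for Hist1h1e and 15.6 to 18.5 FPKM for Hist1h4j. The lowest MUT values were 1.61 and 15.3 FPKM. Hist1h2bg was lower by -0.93 ± 0.21 on the log2 scale (limma adjusted p = 0.0167) and Hist1h2be by -0.81 ± 0.23 (adjusted p = 0.0475). The Hist1h2bg call was lost without MUT 3 or AmcKO 5 (adjusted p up to 0.0644) and under 5 of 9 other settings. The Hist1h2be call was lost in 5 of 6 fits that left out a library (adjusted p up to 0.182) and under 7 of 9 other settings. Hist1h3f, an H3 gene, stood at 9.16, 10.8 and 11.7 FPKM in MUT and 1.60, 3.05 and 1.31 in AmcKO, a log2 difference of 1.99 ± 0.44 (adjusted p = 0.0145), and its WT libraries spread from 2.47 to 14.0. This call was lost without MUT 2, MUT 3 or AmcKO 4 (adjusted p up to 0.0625), and that of Hist1h1e without MUT 1 (adjusted p = 0.0626). With the same FPKM sum, 9 members were higher and 0 lower in this comparison, beside 21.3% and 1.47% of all genes.

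In GcKO against AmcKO, 4 members were called lower (Hist1h2be, Hist1h2bg, Hist1h2br and Hist3h2ba) and 1 higher (Hist2h2bb), beside 4.79% and 0.668% of all genes. Hist2h2bb was listed at 0 in every AmcKO library and entered the test only through MUT and GcKO. Its GcKO values came from 2 fragments in each library, and a fragment in AmcKO would weigh 3.96 to 4.69 FPKM. Hist1h2be was lower by -1.31 ± 0.23 (limma adjusted p = 0.00457) and Hist1h2bg by -1.07 ± 0.21 (adjusted p = 0.00986). Both remained called whichever library was left out, with log2 differences of -1.47 to -1.11 and -1.13 to -0.96, but Hist1h2be was lost under 2 of 9 other settings and Hist1h2bg under 4 of 9. The other calls were less stable to single libraries. Hist1h2br was lost in 5 of 6 fits that left out a library (adjusted p up to 0.172) and under 4 of 9 other settings, Hist3h2ba in 5 of 6 (up to 0.159) and Hist2h2bb in all 6 (up to 0.0907). With the same FPKM sum, 6 members were higher and 1 lower, beside 21.9% and 1.14% of all genes.

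The proteins that make, end and carry histone mRNA were read beside the members. SLBP, which binds the stem-loop, is encoded by Slbp, whose level lay between 3250 and 4240 FPKM in WT, 1590 and 1660 in MUT, 971 and 1680 in GcKO and 2520 and 2760 in AmcKO. Lsm10, a protein of the U7 particle, stood at 3580 to 3680 in WT and 1330 to 1560 in MUT. Both were higher than any histone member, and both fell, Slbp with a log2 difference of -1.16 ± 0.19 in MUT (limma adjusted p = 8.7e-04) and Lsm10 with -1.31 ± 0.17 (adjusted p = 2.04e-04). Falls were common at this level, since 68.1% of all genes at 100 FPKM or more were called lower in MUT, with a median of -0.81. Values with the same FPKM sum were not read for these genes or for the lists below. Of 24 genes of histone mRNA transcription and 3′ end processing, 0 were called higher and 3 lower in MUT (Slbp, Lsm10 and Snrpe), and 2 higher (Zfp473 and Eri1) and 4 lower in GcKO (Slbp, Lsm10, Snrpe and Snrpg). Beside them, 9.46% of all genes were higher and 11.3% lower in MUT, and 8.71% and 11.4% in GcKO. Eri1, an exonuclease that trims the histone mRNA end, rose in GcKO, with a log2 difference of 2.12 ± 0.40 (adjusted p = 0.00242). Npat, the S-phase activator of histone genes, lay at 0.662 to 1.97 FPKM in all 12 libraries. The median over this list was 0.26 in MUT, against 0.12 over all genes.

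Among histones encoded outside the clusters, the 3 most abundant also fell. They lie above 100 FPKM, where 68.1% of all genes were called lower in MUT. Of 12 such histones tested, 4 were called lower in MUT (H3f3a, H3f3b, H2afj and H1foo) and 3 higher (H2afx, H2afy and H1f0). Of all genes tested, 11.3% were lower and 9.46% higher. H1foo, the linker histone of the oocyte, stood at 8920 to 9590 FPKM in WT and 4600 to 5240 in MUT, against 26.3 to 73.0 FPKM over WT and MUT for Hist1h1a. H3f3b, which encodes H3.3, stood at 4250 to 4800 FPKM in WT and 1670 to 1900 in MUT, with a log2 difference of -1.33 ± 0.17 (limma adjusted p = 2.02e-04). Among 16 histone chaperones, 3 were lower in MUT, including Npm2, the oocyte nucleoplasmin, at 630 to 720 FPKM in WT and 228 to 237 in MUT, and 2 were higher. These counts stand beside the same shares of all genes.

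Markers of dividing cells and of granulosa cells were read beside the rises. Of 14 genes of S phase and proliferation, 5 were called higher in MUT (Mki67, Mcm2, Mcm3, Cdc6 and Cdt1) and 2 lower (Pcna and Tyms), and their summed level was 160 to 210 FPKM in WT and 160 to 191 in MUT. For these and the next markers, the shares of all genes called in MUT were 9.46% higher and 11.3% lower. Of the 8 granulosa and cumulus markers tested, Inha, Hsd17b1 and Gja1 were called higher in MUT and Esr2 lower, and the sum over all 17 lay between 166 and 174 FPKM in WT, 57.2 and 83.0 in MUT, 63.4 and 108 in GcKO and 91.3 and 129 in AmcKO. In WT, 145 to 152 FPKM of this sum came from Esr2. Gja1 stood at 2.35 to 4.26 FPKM in MUT and Inha at 1.13 to 5.44, and both were listed at 0 in all WT libraries. In GcKO, where Hist1h3h and Hist2h2bb also rose, 0 of the 8 were called higher, but Gja1 stood at 0.353 to 1.69 FPKM and Inha at 0.505 to 1.08, above 0 in every library. The S-phase genes called in GcKO were the same 5 higher and Tyms lower, beside 8.71% and 11.4% of all genes. The part of such cells in the rises was not tested.

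The remaining members are accounted for as follows. Of the 58 that reached the threshold, 34 did so in all 4 groups, 19 reached it in no WT library and 3 in no MUT library, while 1 passed through WT alone (Hist2h2aa2), 2 through MUT alone and 2 through GcKO alone. Of the 9 members below the threshold, 6 were listed at 0 in every library, among them the testis linker histone Hist1h1t. Just inside the threshold lay Hist1h1b, with a highest value of 1.39 FPKM, and just outside lay Hist2h2be at 0.402. A total of 15 passing members shared most of their 150-nt stretches with another member, and 8 of the 67 shared a locus in the table with another (Hist1h2ao with Hist1h2ap, Hist1h4m with Hist1h4n, Hist2h2aa1 with Hist2h2aa2 and Hist2h3c1 with Hist2h3c2). Values of single genes in these families are therefore uncertain, and sums by type are less affected.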

How the data were processed

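RNA-Seq was done on 12 libraries of 20 oocytes each. The labels name Smart-seq2 amplification and random primers, so which histone RNAs without a poly(A) tail entered the cDNA cannot be read from them. The authors aligned paired reads to mm10 with TopHat2 2.0.13 and used Cufflinks 2.2.1 to estimate the FPKM that were deposited for each library, and no column of them was left unmapped. The gene annotation and strandedness are not given in the sources used here. The deposited Cuffdiff columns, which hold fold changes with their p and q for 6 comparisons, were not used. FPKM hold no counts, so depth is unknown apart from the step of 1 fragment.

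Groups were compared with limma 3.58.1 (R 4.3.3) on log2(FPKM + 1) with a variance trend, in 1 fit over 12 libraries (8 residual degrees of freedom) for 11233 genes at 1 FPKM or more in at least 1 library, with Benjamini-Hochberg adjustment over all of them and 6 contrasts. The code was tested on simulated data. No pair of libraries held identical values. Sequences were read with Python 3.11.15 from GENCODE M21 and RefSeq. Alternatives were another pseudocount (0.1), no filter, a mean FPKM of at least 5, other scalings, no trend, only the 2 groups compared, a fold change over 2, a replicate block and each library left out. Named are the 2 highest members of each histone type, the called members, those beside the threshold, and Hist1h4d and Hist1h3h. Members and lists were chosen with earlier results of these data known.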

Additional observations from a re-analysis of the deposited data

Results flagged for a closer look

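The log2 fold changes of 10 members and comparisons differed between groups that carry different lesions of the same gene, each by a limma contrast of both groups with an adjusted p under 0.05. Against AmcKO, Hist1h2be was at -0.81 in MUT and -1.31 in GcKO, Hist1h2bg at -0.93 and -1.07, and Hist1h2br at -0.92 in GcKO. Hist3h2ba was at -2.51 in GcKO against AmcKO, and Hist1h3f at 1.99 in MUT against AmcKO. For 3 further members AmcKO was listed at 0, so the mean is given in place of a fold change, namely 2.86 FPKM for Hist1h1e and 22.7 FPKM for Hist1h4j in MUT, and 6.88 FPKM for Hist2h2bb in GcKO. These members reached 1 FPKM in no AmcKO library and entered the test only through other groups, with the higher group among them. The Hist2h2bb call was lost in all 6 fits that left out a library. With 3 libraries in each group, single libraries were not screened for outlying values.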

How the results depend on the processing

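Of the 35 calls on a member in a comparison, 0 changed sign under any alternative, and 15 were lost in at least 1 fit that left out a library. In 9 the call was kept under every alternative in which the member was tested. These include Hist1h1e in MUT against WT, Hist1h3h in MUT and in GcKO against WT, and Hist2h2bb in GcKO against WT. These members have means under 5 FPKM and were absent from the setting with a mean of at least 5. The number of members called moved by over 1.5 times in these cases. Without the filter, AmcKO against WT gave 0 and GcKO against AmcKO 3. With a mean FPKM of at least 5, AmcKO against WT gave 2. With the same FPKM sum, GcKO against MUT gave 1 and MUT against AmcKO 9. With quantile normalization, MUT against AmcKO gave 3 and GcKO against AmcKO 2, and without the trend 3 and 1. With only the 2 groups, AmcKO against WT gave 2, GcKO against MUT 1, MUT against AmcKO 3 and GcKO against AmcKO 0. A fold change over 2 left 3 in MUT against AmcKO. With 1 library left out in turn, the counts were 11 to 13 for MUT against WT, 10 to 14 for GcKO against WT, 1 to 2 for AmcKO against WT, 3 to 5 for MUT against AmcKO and 2 to 3 for GcKO against AmcKO. The label number could serve as a block for AmcKO against WT, where 0 members were then called, and for GcKO against MUT, where 0 were called. In these comparisons, differences of each library from its group mean correlated at -0.041 to 0.041 between libraries of the same number. Between libraries of different numbers they correlated at -0.057 to 0.071. With 3 libraries in a group, these values cannot settle whether the libraries were paired. The causes of these shifts were not tested. Members under 5 FPKM are limited by their few fragments.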
